A study of Mus musculus with 8 samples.

Results

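The Hox genes are transcription factor genes whose products contain a homeodomain, a DNA-binding fold, and they were examined here in mouse embryonic fibroblasts of 4 genotypes. Members were all genes whose symbol is Hoxa, Hoxb, Hoxc or Hoxd followed by a number, on probe sets annotated to a single symbol, with the brightest probe set standing for each gene. This gave 31 of the 12393 genes on the arrays, out of 39 Hox genes in the RefSeq gene table of the GRCm38.p6 assembly. Of the 31 members, 20 reached the floor of 122 signal units on 1 or more arrays and were tested, among 9626 genes tested in all. The floor is the level under which signals were treated as having no measured order.

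Hox genes lie in 4 clusters, A to D, and the genes of a cluster are numbered by paralogue group along the chromosome. Their order matches the order in which they are switched on along the body axis, from low numbers in the hindbrain and pharyngeal arches to high numbers in the tail and the ends of the limbs. Cultured fibroblasts are known to keep a Hox pattern that reflects the body region they were taken from. Polycomb group proteins keep Hox genes silent outside their domains, Trithorax group proteins keep them active, and retinoic acid sets their anterior limits in the embryo.

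Cells were derived from mice of mixed C57BL/6 x 129Ola background and were Tbk1+/+ Ikbke+/+ (WT), Tbk1-/-, Ikbke-/- or Tbk1-/- Ikbke-/- (double mutant). The products of Tbk1 and Ikbke are sister kinases that switch on interferon regulatory factors. Each genotype was mock transfected or received B-DNA, the synthetic double-stranded poly(dA-dT)-poly(dT-dA), for 4 h, with a single array for each of the 8 combinations. The labels name no embryo age, body region, number of embryos or separate cultures, so genotype cannot be told apart from the embryos or the part of the embryo from which a culture came, and every p-value reflects the spread among these 8 arrays alone, which may be technical.

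The arrays differed in ways that touch the Hox comparisons. The 2% trimmed mean of the deposited signal was 140 and 159 on the double-mutant arrays and 179 to 255 on the others, so the double-mutant arrays were multiplied by the largest factors, 3.58 and 3.14, to reach a common 500. Fibroblast markers were bright on every array, with 12 of 12 at or above 244, which is 2 times the floor, except 11 of 12 on each Tbk1-/- array. Their levels still differed, and 7 of 12 passed the F test between genotypes given below (20.4% of all genes). Dcn read 14062 and 12713 in double-mutant cells and 557 to 780 in WT and Tbk1-/- cells. Lum read 117 and 87.1 in Tbk1-/- cells and 1460 to 5773 elsewhere. Leukocyte markers reached 244 for 14 of 18 genes on the WT mock array and 11 of 18 on the WT B-DNA array, against 1 or 2 elsewhere, and their summed signal was 16329.7 and 5649.7 in WT against 1569 to 2002. The summed signal of 6 cartilage markers was 36014 and 38870.0 on the Ikbke-/- arrays, against 1625 to 6355 elsewhere. Xist, made from the inactive X chromosome of female cells, read 2950.1 to 3766 in WT and Tbk1-/- cells and 138 to 209 in both genotypes lacking Ikbke, so embryo sex and the Ikbke genotype cannot be told apart. Tbk1 itself read 226 to 390 in both genotypes labelled as lacking it and 472 to 989 in the others, and Ikbke lay under the floor everywhere. The part of these differences in the Hox results was not tested, except by the fit without both WT arrays.

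On scaled values, more Hox genes were detected in double-mutant cells than in any other genotype. At or above the floor lay 16 and 13 of the 31 members in double-mutant cells (mock, then B-DNA), against 7 and 10 in WT, 9 and 10 in Tbk1-/- and 5 and 7 in Ikbke-/- cells. At 244 or more lay 7 and 8 in double-mutant cells and between 0 and 4 on each other array. Across all genes, the share at or above the floor on the same scaled values differed far less, from 61.8% to 68.6% per array. The floor was applied after scaling. With factors of 3.58 and 3.14, it stands for a lower deposited signal on the double-mutant arrays than on the others. These counts, and those by gene and cluster below, therefore depend on the scaling, and detection was not counted on deposited values.

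The genes detected on both arrays of a genotype also differed between genotypes. Hoxa9, Hoxa11, Hoxb2 and Hoxc6 were at or above the floor on both arrays of every genotype. This holds for the brightest probe set of each gene. Another Hoxa9 probe set (9.65 to 86.8) and another Hoxc6 probe set (4.65 to 11.4) lay under the floor on all arrays. WT cells had in addition Hoxa13 and Hoxd8, and Tbk1-/- cells had Hoxb3, Hoxb6 and Hoxb9. Ikbke-/- cells had in addition Hoxa3 alone. Double-mutant cells had 12 such genes, among them Hoxa2, Hoxa3, Hoxa5, Hoxb3, Hoxb4, Hoxb5, Hoxb6 and Hoxb9 besides the 4 shared ones.

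Clusters A and B carried the double-mutant pattern on scaled values. At or above the floor in double-mutant cells lay 8 and 5 of the 9 cluster A members, against 3 or 4 on each other array. Hoxa4 and Hoxa7, counted there on the mock array alone, reached the floor of deposited values (48.7) on no array. For the 9 cluster B members the counts were 6 and 7 in double-mutant cells, 5 and 5 in Tbk1-/- cells, 2 and 2 in WT and 1 and 2 in Ikbke-/- cells. Cluster C gave 1 or 2 of 6 members on every array, and cluster D gave 1 and 2 of 7 in WT, 0 and 1 in Ikbke-/- and 0 in Tbk1-/- and double-mutant cells. The 11 members under the floor on all 8 arrays were Hoxa10, Hoxb1, Hoxb13, Hoxc4, Hoxc5, Hoxc13, Hoxd1, Hoxd9, Hoxd10, Hoxd11 and Hoxd12, of which 5 belong to cluster D.

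The 8 arrays were fitted together with limma, with terms for genotype and treatment, on log2 signals raised to the floor where lower. Between genotypes, 6 of the 20 tested members passed the F test at a Benjamini-Hochberg adjusted p under 0.05, which is 30% of members, against 20.4% of all tested genes. These were Hoxa2, Hoxa5, Hoxb3, Hoxb4, Hoxb9 and Hoxd8. The count was 3 without the WT mock array, 2 without the WT B-DNA array, and 0 without the double-mutant mock or the double-mutant B-DNA array. Calls over all genes fell in the same fits, from 1967 to 317, 200, 157 and 124. The count was 4, namely Hoxa2, Hoxa5, Hoxb3 and Hoxb9, without both WT arrays, where 786 genes passed in all.

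Against WT, 6 of 20 members passed limma's test in double-mutant cells, where 13.7% of all genes did. Higher were 5 (8.45% of all genes), namely Hoxa2, Hoxa5, Hoxb3, Hoxb4 and Hoxb9, and lower was 1, Hoxd8 (5.24% of all genes). The median difference over the 20 tested members was 0.19 on the log2 scale, against 0.04 over all tested genes. Hoxa2, Hoxa4, Hoxa7, Hoxb5 and Hoxc9 were tested only because a double-mutant array reached the floor. This filter favours a higher median, here and in the comparisons with the single mutants. Without the filter both medians were 0. By cluster, 2 of 8 tested genes were higher in A, 3 of 7 in B and 0 of 3 in C, while 1 of 2 was lower in D. Without either WT array or either double-mutant array no member passed, and between 0 and 14 of the 9626 genes did; without any 1 of the other 4 arrays, 4 members passed (Hoxa2, Hoxa5, Hoxb3 and Hoxb9).

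By paralogue position, the same comparison gave 2 of 4 tested anterior members (groups 1 to 3) higher, with a median log2 difference of 1.02. Among 10 tested central members (groups 4 to 8), 2 were higher and 1 lower, with a median of 0.07. Among 6 tested posterior members (groups 9 to 13), only Hoxb9 was higher, and the median was -0.15. Over all genes 8.45% were higher and 5.24% lower. These counts cover the 20 of 31 members that reached the floor, and no test compared the position groups. Anterior Hoxa2, central Hoxa4, Hoxa7 and Hoxb5, and posterior Hoxc9 were tested only because a double-mutant array reached the floor. Anterior Hoxb1 and Hoxd1 were not tested. The counts and medians by position therefore depend in part on that filter.

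Against Tbk1-/- cells, 6 members were higher in double-mutant cells and none lower, namely Hoxa2, Hoxa3, Hoxa5, Hoxb3, Hoxb4 and Hoxb9. In this comparison 20.8% of all genes passed, with 12.5% higher and 8.29% lower in the double mutant. The median difference of the tested members was 0.27, against 0.08 over all genes, and both were 0 without the filter. Only Hoxa2 and Hoxa5 passed on deposited values without further scaling. No member passed without the Tbk1-/- mock array, only Hoxa5 did without the Tbk1-/- B-DNA array, and 2 did (Hoxa2 and Hoxb9) without the double-mutant mock array. Over all genes, 2000 calls fell to 47, 163 and 438 in these fits.

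Against Ikbke-/- cells, 6 members were higher in double-mutant cells and none lower, namely Hoxa2, Hoxa5, Hoxb2, Hoxb3, Hoxb4 and Hoxb9. Of all genes 19.5% passed here, with 13.1% higher and 6.41% lower in the double mutant. The median difference was 0.28 for the tested members and 0.11 for all genes, and 0.04 and 0 without the filter. No member passed without the Ikbke-/- B-DNA array, where calls over all genes fell from 1875 to 14. The 3 comparisons share the double-mutant arrays, and their values are given side by side for that reason.

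**Figure D1:**
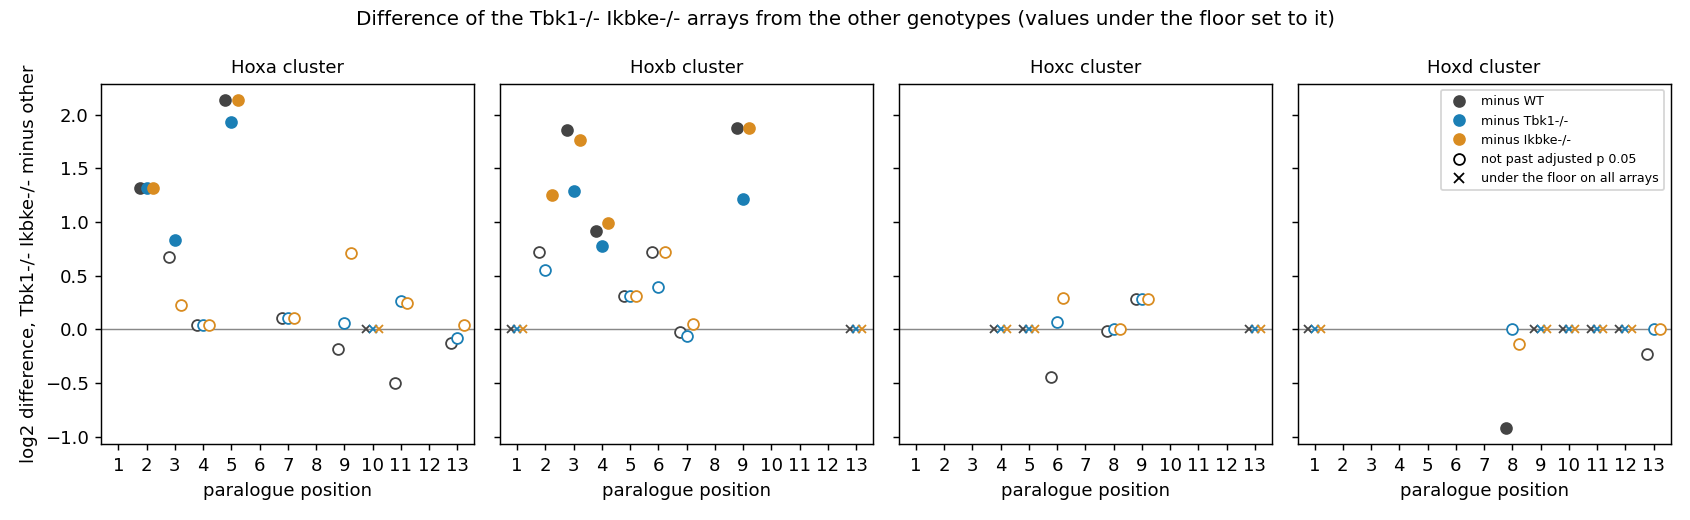
Log2 difference of double-mutant cells from WT, Tbk1-/- and Ikbke-/- cells (values under the floor set to it, mean of both arrays of a genotype, no error bars) for each of the 31 Hox genes, by paralogue position in each cluster; filled points passed limma's adjusted p threshold of 0.05, open points did not, and crosses are genes under the floor on all arrays. The filled points above 0 lie at positions 2 to 5 in cluster A and 2 to 9 in cluster B, and the filled point below 0 is Hoxd8 against WT.

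The scaling of the dim double-mutant arrays sets the level against which these differences are read. On deposited values without further scaling, the median difference of all genes between double-mutant and WT cells was -0.29 and that of the tested members 0.01. Hoxa2, Hoxa5, Hoxb3 and Hoxb9 were still higher there and Hoxd8 lower, Hoxb4 no longer passed, and Hoxa11 was added as lower. Of all genes, 813 were higher and 504 lower on scaled values, 110 and 605 without further scaling, and 562 and 520 with arrays scaled to the same median. Against Tbk1-/- cells these splits were 1202 and 798, 208 and 2020, and 715 and 1220, and against Ikbke-/- cells they were 1258 and 617, 174 and 1012, and 681 and 971. Hoxa2 and Hoxa5 were higher in double-mutant cells in all 3 comparisons under each of these scalings and under quantile normalization, and so were Hoxb3 and Hoxb9, except against Tbk1-/- cells without further scaling.

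Between the other genotypes no member passed on these settings, and Hoxb9 alone passed on others, as given with that gene. In Tbk1-/- against WT cells 0 of 20 did (2.88% of all genes), with 4 at an unadjusted p under 0.05 and a lowest limma adjusted p of 0.0639. In Ikbke-/- against WT cells 0 of 20 did (2.99% of all genes), with 3 at an unadjusted p under 0.05 and a lowest adjusted p of 0.0876. In Ikbke-/- against Tbk1-/- cells 0 of 20 did (4.25% of all genes), with 3 at an unadjusted p under 0.05 and a lowest adjusted p of 0.0518.

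Hoxa5, needed for lung formation and for the skeleton at the border of neck and thorax, had the largest range of genotype means. Its signal was 531 and 543 in double-mutant cells (mock, then B-DNA), 86.2 and 36.0 in WT, 92.9 and 163 in Tbk1-/- and 66.8 and 23.5 in Ikbke-/- cells. Both double-mutant arrays thus stood above the 6 others, of which only the Tbk1-/- B-DNA array reached the floor. Hoxa5 was at least 4.40-fold higher in double-mutant than in WT cells (log2 difference 2.14, SE 0.15, limma adjusted p = 0.00469) and at least 3.81-fold higher than in Tbk1-/- cells (adjusted p = 0.0036). Where both arrays of a genotype lie under the floor, as for Hoxa5 in WT cells, the spread within that genotype was not measured.

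Hoxa2, which specifies the second pharyngeal arch, was above the floor in double-mutant cells alone. It read 310.0 and 298 there, 27.2 and 44.7 in WT, 52.4 and 58.0 in Tbk1-/- and 90.6 and 72.2 in Ikbke-/- cells. The difference was at least 2.49-fold against each of the other genotypes, with limma adjusted p-values of 0.00536 against WT, 0.00383 against Tbk1-/- and 0.00395 against Ikbke-/- cells. Hoxa3, which acts in the third arch and in thymus and parathyroid formation, read 201 and 257 in double-mutant cells, 114 and 165 in WT, 96.5 and 133 in Tbk1-/- and 211 and 179 in Ikbke-/- cells. Its double-mutant range overlapped that of Ikbke-/- cells, and it passed only against Tbk1-/- cells (at least 1.79-fold, limma adjusted p = 0.041), a call kept in 4 of 16 alternative settings. A second Hoxa3 probe set read 363 and 292 in double-mutant cells and 56.2 to 125 elsewhere, so that the probe sets of this gene disagree about Ikbke-/- cells.

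Hoxb3, a gene of the hindbrain and pharyngeal arches, read 441 and 443 in double-mutant cells. In Tbk1-/- cells its signal was 189 and 174, in WT 101 and 76.0, and in Ikbke-/- cells 99.6 and 139. The double-mutant arrays stood above all others, by at least 3.62-fold over WT (log2 difference 1.86, SE 0.12, limma adjusted p = 0.00446) and by a measured 2.44-fold over Tbk1-/- cells (adjusted p = 0.00536).

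Hoxb9, a gene of the thoracic region and rib cage, gave signal in both genotypes that lack Tbk1. It read 448 and 447 in double-mutant cells and 181 and 205 in Tbk1-/- cells, against 13.9 and 27.1 in WT and 9.27 and 10.9 in Ikbke-/- cells. The groups did not overlap, and all 4 arrays without Tbk1 stood above the floor while all 4 with Tbk1 lay under it. The share of all genes with this split by Tbk1 was not counted. The double mutant was at least 3.66-fold above WT (log2 difference 1.87, SE 0.12, limma adjusted p = 0.00446) and 2.32-fold above Tbk1-/- cells (adjusted p = 0.0052). The difference between Tbk1-/- and WT cells was 0.66 (SE 0.12) and missed the threshold at limma adjusted p = 0.0639, with the WT values raised to the floor. With the floor at the 20th percentile that difference was at least 2.34 and passed (limma adjusted p = 0.00641). Hoxb9 also passed in both Tbk1-/- against WT and Ikbke-/- against Tbk1-/- cells with median scaling and with quantile normalization.

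Hoxb4, which acts in the hindbrain and in blood stem cells, read 215 and 276 in double-mutant cells. It read 136 and 86.6 in WT, 40.8 and 165 in Tbk1-/- and 57.9 and 95.3 in Ikbke-/- cells, so the double-mutant arrays stood above the 6 others by a narrower margin. It was at least 1.89-fold above WT (log2 difference 0.92, SE 0.19, limma adjusted p = 0.0391), a call kept in 1 of 15 alternative settings, and its calls against Tbk1-/- and Ikbke-/- cells were kept in 1 and 4 of 16. A second probe set, at 136 and 203 in double-mutant cells and 57.3 to 121 elsewhere, also had its highest signals there. Hoxb2, which patterns the facial nerve region of the hindbrain, was bright everywhere, at 635 and 715 in double-mutant, 308 and 545 in WT, 426 and 495 in Tbk1-/- and 183 and 438 in Ikbke-/- cells. It was 2.38-fold higher in double-mutant than in Ikbke-/- cells (log2 difference 1.25, limma adjusted p = 0.0474), a call kept in 2 of 17 alternative settings, and its difference from WT was 0.72 (SE 0.30, adjusted p = 0.192).

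Hoxd8, a gene of the trunk, went the other way. Its signal was 196 and 271 in WT but 13.2 and 98 in double-mutant cells, with 81.6 and 51.2 in Tbk1-/- and 87.6 and 148 in Ikbke-/- cells. Both WT arrays stood above the 6 others, and double-mutant cells were at least 1.89-fold lower than WT (log2 difference -0.92, SE 0.16, limma adjusted p = 0.0287), a call kept in 5 of 15 alternative settings. WT cells are also the ones with leukocyte marker signal, and the part of those cells in the Hoxd8 signal was not tested.

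Hoxa9 and Hoxa11 had the next largest ranges of genotype means and did not pass the F test. Hoxa9, which acts in blood progenitors, the ribs and the upper limb, read 457 and 448 in WT, 433 and 341 in Tbk1-/-, 181 and 332 in Ikbke-/- and 382 and 419 in double-mutant cells. Hoxa11, needed for the forearm bones and the uterus, read 221 and 225 in WT, 131 and 132 in Tbk1-/-, 132 and 134 in Ikbke-/- and 198 and 125 in double-mutant cells. The limma adjusted p of the F test was 0.222 for Hoxa9 and 0.127 for Hoxa11. Hoxa11 was lower in double-mutant than in WT cells on deposited values without further scaling (log2 difference -0.82, passing limma's test), and its difference did not pass on scaled values.

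**Figure D2:**
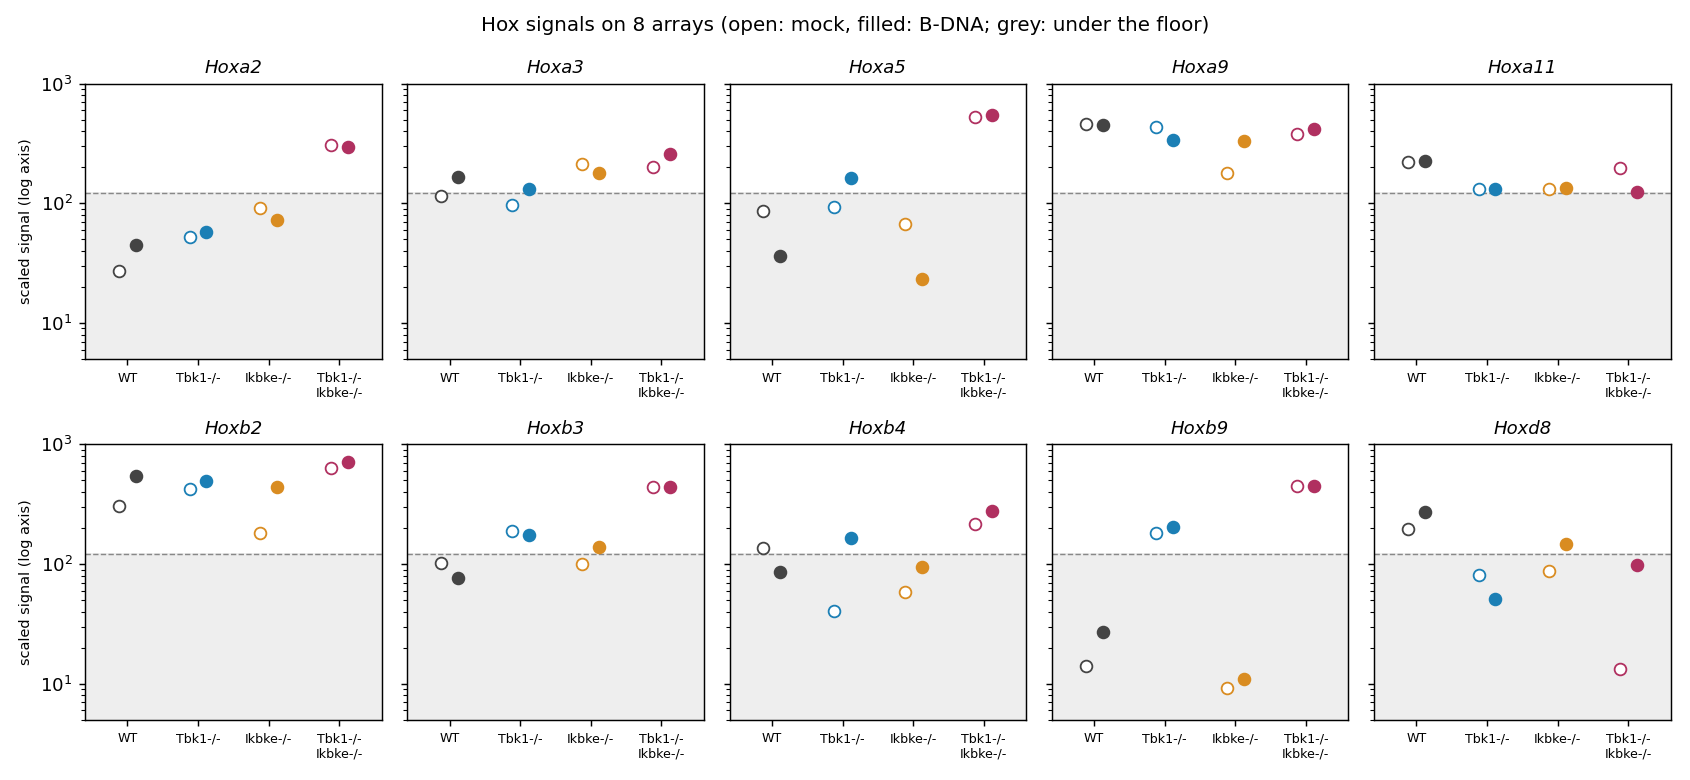
Scaled signal (log axis) of 10 Hox genes on the 8 arrays by genotype, with open points for mock and filled points for B-DNA; the dashed line and grey area mark the floor of 122. The Tbk1-/- Ikbke-/- (double-mutant) points stand highest for Hoxa2, Hoxa5, Hoxb2, Hoxb3, Hoxb4 and Hoxb9, while Hoxd8 is above the floor on both WT arrays and under it on both double-mutant arrays.

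Groups that do not overlap were counted for all members. Both double-mutant arrays stood above the 6 others for 7 of 20 members (Hoxa2, Hoxa5, Hoxb2, Hoxb3, Hoxb4, Hoxb5 and Hoxb9), against 21.6% of all tested genes. Hoxa2 and Hoxb5 were tested only because the double-mutant arrays reached the floor, so the filter favours this order for them. Both WT arrays stood highest for 3 (Hoxa9, Hoxa11 and Hoxd8), against 4.81% of all genes, and both Ikbke-/- arrays lowest for 1 (Hoxa9), against 9.06%. No member had both Tbk1-/- arrays highest (8.36% of all genes) or lowest (6.85%), both Ikbke-/- arrays highest (4.42%), both WT arrays lowest (3.12%) or both double-mutant arrays lowest (9.71%).

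A further 3 members were seen in double-mutant cells close to the floor. Hoxa4, Hoxa7 and Hoxb5, all of the trunk, read 129 and 86.6, 142 and 122, and 148 and 154 there, and lay between 4.12 and 27.0 on all other arrays. With the floor at the 20th percentile (38.2), under which their WT signals still lay, Hoxa4 (log2 difference at least 1.47), Hoxa7 (at least 1.78) and Hoxb5 (at least 1.99) passed limma's test in double-mutant against WT cells, with adjusted p-values of 0.0254, 0.0092 and 0.00716. With that floor 8 of 27 tested members passed in all, against 6.56% of all genes, with 7 higher and Hoxa10 lower, and Hoxb4 and Hoxd8 did not pass. On deposited values without further scaling, Hoxb5 differed by 0.01 and did not pass, and Hoxa4 and Hoxa7 did not reach the floor. The calls of these 3 genes thus depend on the scaling as well as on the lower floor. A second Hoxa4 probe set stayed under the floor of 122 on all arrays.

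The remaining tested members passed no comparison with the floor at 122. Hoxb6 read 234 and 174 in double-mutant and 183 and 128 in Tbk1-/- cells, and 31.8 to 74.6 elsewhere, so both genotypes without Tbk1 were at or above the floor. As for Hoxb9, the share of all genes with this split was not counted. The double-mutant against Ikbke-/- difference of Hoxb6 had a limma adjusted p of 0.0528, and 0.032 with the floor at the 20th percentile. Hoxc6, a thoracic gene, was above the floor on all 8 arrays, from 127 on the Ikbke-/- mock array to 295 on the WT B-DNA array. Hoxa13 and Hoxb7 stayed between 57.2 and 147 on all arrays. Each of Hoxc8, Hoxd13 and Hoxc9 reached the floor on a single array, which was that of WT cells after B-DNA for Hoxc8 (125) and for Hoxd13, a gene of the digits (168), and that of mock-transfected double-mutant cells for Hoxc9 (180.2).

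B-DNA was compared with mock over the 4 genotypes and within each. In the fit over all genotypes 0 of 20 members passed limma's test, as did 0% of all 9626 genes, while 1 member and 761 genes had an unadjusted p under 0.05. That member was Hoxb2, higher after B-DNA in all 4 genotypes, with a log2 difference of 0.62 (SE 0.21, limma adjusted p = 0.616). The median difference was 0.02 for the tested members and -0.01 for all genes. The interaction of treatment with Tbk1, which asks whether the B-DNA ratio depends on Tbk1, was passed by 0 of 20 members and 2.07% of all genes, with 1 member at an unadjusted p under 0.05 and a lowest limma adjusted p of 0.176, again for Hoxb2.

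Within a genotype there is 1 array per treatment and no test. A 2-fold difference with the higher array at 244 or more was seen for no member in WT (5.16% of all genes), Tbk1-/- (0.696%) or double-mutant cells (1.29%). In Ikbke-/- cells it was seen for 1 member, Hoxb2, which read 183 on the mock and 438 on the B-DNA array (log2 ratio 1.26), against 5.19% of all genes in either direction and 3.55% higher after B-DNA. Over the members at or above the floor on either array of a pair, log2 ratios ran from -0.15 to 0.82 in WT (11 members), -0.52 to 0.44 in Tbk1-/- (12), -0.24 to 1.26 in Ikbke-/- (7) and -0.81 to 0.36 in double-mutant cells (17).

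**Figure D3:**
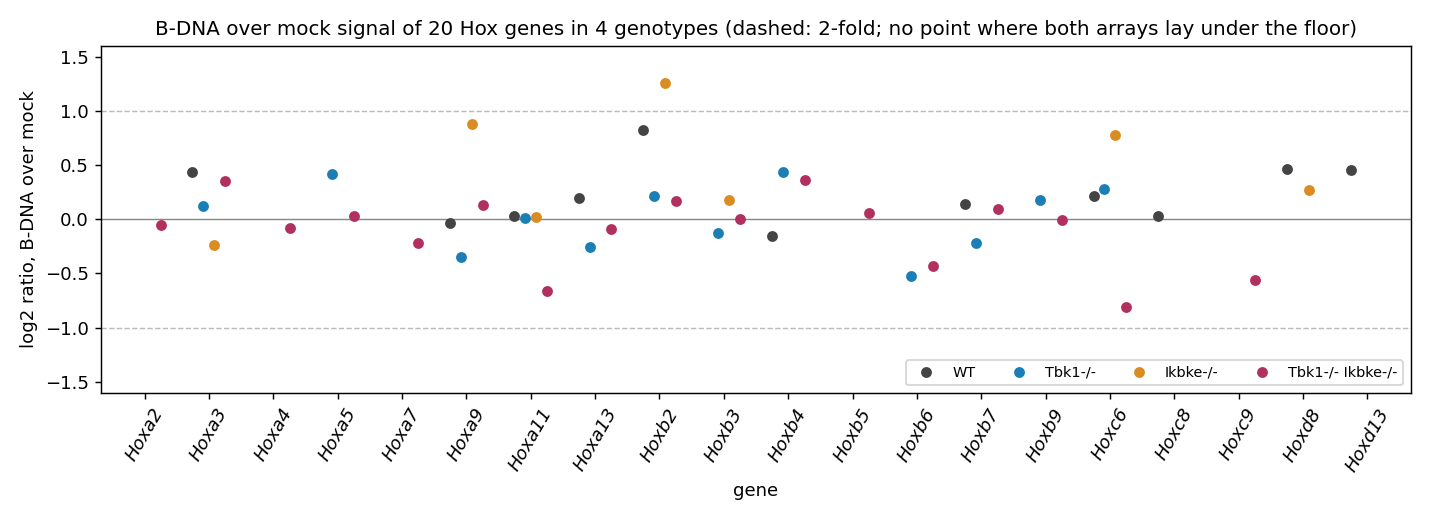
Log2 ratio of the B-DNA array over the mock array for the 20 tested Hox genes, coloured by genotype, with signals under the floor raised to it and no point where both arrays lay under it; dashed lines mark 2-fold. All points lie within the lines except Hoxb2 in Ikbke-/- cells at 1.26.

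Promoter sequences are shown for the 4 members of the F test that the RefSeq promoter table holds, so that the upstream DNA of the genes higher in double-mutant cells (Hoxa2, Hoxa5 and Hoxb4) can be read beside that of the gene lower there (Hoxd8). The table held 18 of the 31 members. Each line gives the 250 bases before the annotated start in GRCm38.p6, 5′ to 3′ on the gene's strand, and capitals mark TAAT or its reverse complement ATTA, the core that homeodomains bind. The windows are chr6:52164832-52165081 on the minus strand for Hoxa2, chr6:52204588-52204837 on the minus strand for Hoxa5, chr11:96318017-96318266 on the plus strand for Hoxb4 and chr2:74704365-74704614 on the plus strand for Hoxd8.
Hoxa2: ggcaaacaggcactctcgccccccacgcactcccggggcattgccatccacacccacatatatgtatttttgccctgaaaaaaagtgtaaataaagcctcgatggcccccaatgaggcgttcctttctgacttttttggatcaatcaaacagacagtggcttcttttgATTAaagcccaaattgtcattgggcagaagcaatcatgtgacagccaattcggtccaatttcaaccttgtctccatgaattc
Hoxa5: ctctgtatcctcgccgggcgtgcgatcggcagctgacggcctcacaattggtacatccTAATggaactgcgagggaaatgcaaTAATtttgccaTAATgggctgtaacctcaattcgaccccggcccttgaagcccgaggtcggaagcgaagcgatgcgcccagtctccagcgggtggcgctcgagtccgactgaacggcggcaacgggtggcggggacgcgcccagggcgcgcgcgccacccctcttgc
Hoxb4: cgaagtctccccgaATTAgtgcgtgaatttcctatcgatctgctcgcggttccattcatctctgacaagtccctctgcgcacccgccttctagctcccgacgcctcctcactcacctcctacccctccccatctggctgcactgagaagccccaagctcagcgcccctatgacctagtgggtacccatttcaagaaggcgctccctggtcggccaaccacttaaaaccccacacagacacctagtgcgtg
Hoxd8: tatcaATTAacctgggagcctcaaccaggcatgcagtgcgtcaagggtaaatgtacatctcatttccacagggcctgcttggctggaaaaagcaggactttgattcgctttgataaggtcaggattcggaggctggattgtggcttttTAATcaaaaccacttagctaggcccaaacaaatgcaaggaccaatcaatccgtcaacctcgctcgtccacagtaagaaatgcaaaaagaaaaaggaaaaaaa

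Hoxa5 held 3 matches to the core, Hoxd8 held 2, and Hoxa2 and Hoxb4 held 1 each. The core, on either strand, occurred in 54.9% of all 32851 windows of this length, so a match is common and is a description of the letters, not a site. The dinucleotide CG, the target of DNA methylation and a feature of Polycomb-bound promoters, occurred 28 times in the Hoxa5 window and 14 times in that of Hoxb4, against 6 each for Hoxa2 and Hoxd8 and a median of 6 over all windows.

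Genes that work with Hox proteins or set their domains were read from 6 lists. TALE homeodomain proteins (Pbx, Meis and related factors) bind DNA together with Hox proteins, and 7 of 9 listed genes were tested. Higher in double-mutant than in WT cells were 4 of 7 (8.45% of all genes), namely Meis1, Meis2, Pbx2 and Pbx3, and none was lower, and 4 of 7 were also higher against Tbk1-/- (12.5% of all genes) and against Ikbke-/- cells (13.1%). The median over the 7 was 0.87, against 0.04 over all genes. Meis1 was tested only because the double-mutant arrays reached the floor, and Pbx4, under the floor on all arrays, was not tested. As for the Hox genes, this filter favours a higher count and a higher median. Meis1, Meis2, Pbx2 and Pbx3 were also higher against WT with median scaling and with quantile normalization. On deposited values without further scaling, only Meis2 was higher against WT. There 2 were higher (Meis1 and Meis2) and Meis3 lower against Tbk1-/- cells, and 2 were higher (Meis2 and Pbx3) against Ikbke-/- cells.

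Meis2 had the largest difference of the TALE genes, and it read 1393 and 1147 in double-mutant, 149 and 67.6 in WT, 142 and 153 in Tbk1-/- and 318 and 348 in Ikbke-/- cells. Double-mutant cells stood above all others (log2 difference from WT at least 3.23, SE 0.16, limma adjusted p = 0.00405). Ikbke-/- cells stood above WT (at least 1.30, limma adjusted p = 0.030), a call lost on deposited values without further scaling. Meis1 read 269 and 437 in double-mutant cells and 4.90 to 99.4 elsewhere, so only the double mutant was above the floor (log2 difference from WT at least 1.49, SE 0.22, limma adjusted p = 0.0194). Pbx3 read 992 and 775 in double-mutant cells and 295 to 494 elsewhere, and Pbx2 618 and 564 against 238 to 333. In these 4 genes, as in Hoxa2, Hoxa5, Hoxb3, Hoxb4 and Hoxb9, the groups did not overlap and the double-mutant arrays were highest. Both double-mutant arrays stood highest for 21.6% of all tested genes, and the genes listed here had already passed as higher.

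**Figure D4:**
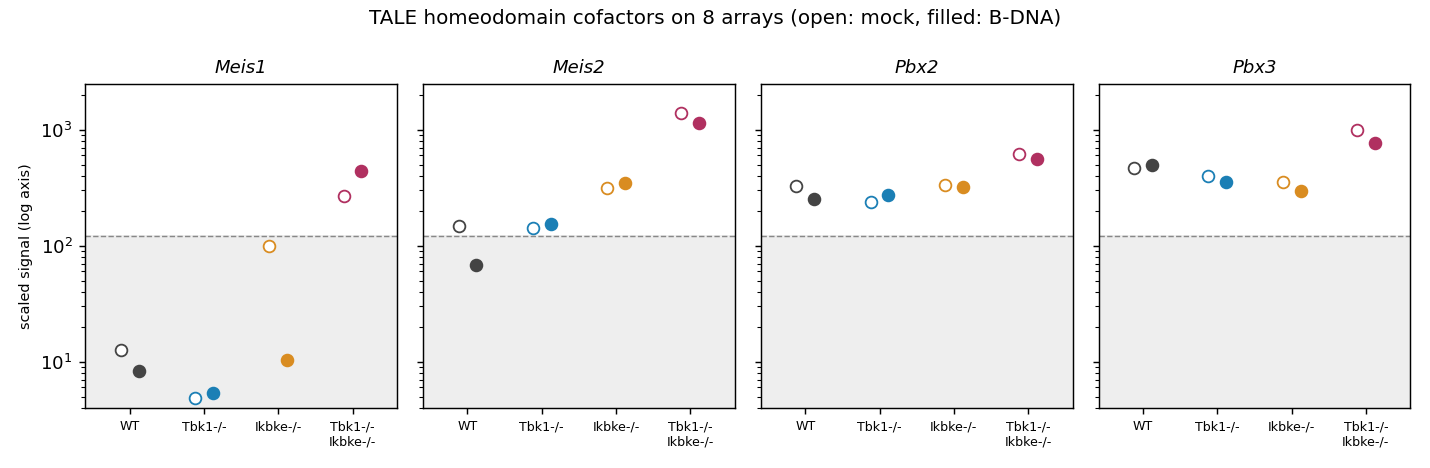
Scaled signal (log axis) of the 4 TALE cofactor genes that passed the F test, on the 8 arrays by genotype, with open points for mock, filled points for B-DNA and the floor of 122 as a dashed line over a grey area. Both Tbk1-/- Ikbke-/- points are highest for each gene, and Meis1 is under the floor on the 6 other arrays.

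Polycomb group genes, which encode repressors of the Hox clusters, had 20 of 25 listed genes tested. Higher in double-mutant than in WT cells were 5 of 20 (8.45% of all genes) and none lower, with a median of 0.41. These were Bmi1, Phc1, Ezh2, Cbx2 and Cbx6. Ezh2, the enzyme that methylates histone H3 for this repression, read 932 and 1036 in double-mutant cells and 143 to 360.0 elsewhere, and Bmi1 read 1235 and 1517 against 485 to 618. The same 5 were higher against WT with median scaling and with quantile normalization. On deposited values without further scaling none of the 5 passed against WT and Phc2 was lower. This count thus depends on whether the dim double-mutant arrays are scaled. Of the Trithorax group and related activators, 1 of 10 tested, Ctcf, was higher against WT (8.45% of all genes). It passed with median scaling and quantile normalization and did not pass without further scaling.

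The other patterning genes differed between genotypes in several directions. Among limb and body wall factors, 21 of 39 listed were tested and 6 passed the F test, which 20.4% of all genes passed. Prrx1, a mesenchymal gene of limb and face, read 101 and 103 in Tbk1-/- cells and 1701 to 4360.4 elsewhere, and the log2 difference between Tbk1-/- and WT cells was -4.51 with Tbk1-/- values raised to the floor (limma adjusted p = 0.00208). Gli2, an effector of Hedgehog signals, was above the floor in double-mutant cells alone, at 415 and 499. Msx1, a gene of limb and craniofacial mesenchyme, read 466 and 356 in WT cells, 299 and 205 in Ikbke-/- cells and 85.7 to 129.8 in both genotypes without Tbk1.

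Among head and axial factors, 10 of 29 listed were tested and 4 passed the F test (20.4% of all genes). Pax8, a gene of kidney and thyroid, read 740.4 and 853 in Tbk1-/- cells and 168 to 227 elsewhere. Pax1, a gene of the sclerotome and pharyngeal pouches, read 280.4 and 272 in double-mutant cells and 14.3 to 135 elsewhere. Of retinoic acid and Gdf11 signalling, 14 of 23 listed were tested and 5 passed the same test. Rdh10, an enzyme of retinoic acid synthesis, read 2277 and 2953 in Tbk1-/- cells and 196 to 412 elsewhere, and Crabp2, which carries retinoic acid in the cell, was above the floor in WT (1236 and 1193) and Ikbke-/- cells (482 and 489) alone.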

How the data were processed

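Total RNA of mouse embryonic fibroblasts was hybridised to 8 Affymetrix arrays of 1 colour, covering 4 genotypes with mock or B-DNA transfection. The deposited values are linear signal intensity for each probe set, which the authors computed with MAS5, per the submitters' processing notes and the labels. No detection calls or scaling target were used here. Probe set names belong to an array type other than the one in the design text. Gene symbols came from the platform annotation, updated to the GRCm38.p6 RefSeq table: of 22626 probe sets without controls, 20380 had 1 symbol, 691 several and 1555 none.

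Each array was scaled to a 2% trimmed mean of 500. Values under a floor of 122, the 40th percentile over all arrays after scaling, were raised to it before log2. Genes at or above the floor on 1 or more arrays were tested with limma 3.58.1 in R 4.3.3 (genotype and treatment, 3 residual degrees of freedom, 2-sided, Benjamini-Hochberg over 9626 genes). The dependence on Tbk1 used an interaction fit with 1 residual degree of freedom. A fold against a group under the floor is a bound and is written "at least". The fit was tested on simulated data with known changes. Values on all arrays are given for members that passed any comparison, and for the next largest ranges up to 10 genes; other lists name up to 6 genes. Hoxa4, Hoxa7, Hoxb5 and the other remaining members were singled out after their values were seen. The members and lists were chosen with earlier results of these data known. Alternatives were scaling, floor, filter, probe set, model and leaving out each array. The number of arrays limits the precision.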

Additional observations from a re-analysis of the deposited data

How the results depend on the processing

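No direction of a Hox gene that passed was reversed under any alternative run. With the floor at the 60th percentile, which left 6 members to test, 3 passed the F test, 3 passed in double-mutant against WT cells and 3 against Tbk1-/- cells (Hoxa5, Hoxb3 and Hoxb9 each time), against 24.9%, 17.7% and 26.7% of all genes, and without further scaling 2 passed against Tbk1-/- cells. Hoxb9 alone (1 member) passed in Tbk1-/- against WT cells and in Ikbke-/- against Tbk1-/- cells with median scaling, quantile normalization, the floor at the 20th percentile, the mean of all probe sets, and no treatment term. Leaving out 1 array at a time, the F test called 0 to 4 members, double-mutant cells 0 to 4 against WT, 0 to 5 against Tbk1-/- and 0 to 4 against Ikbke-/- cells, and each of the other comparisons 0. Without both WT arrays, an alternative chosen after seeing the data, 4 members passed the F test, as did 786 of all genes. In that fit 4 members passed in double-mutant cells against each single mutant. Over all genes, 997 passed there against Tbk1-/- and 913 against Ikbke-/- cells, down from 2000 and 1875 with all arrays. B-DNA against mock and its dependence on Tbk1 called 0 members under every alternative run. B-DNA against mock also called 0 of all genes in each of these runs. The dependence on Tbk1 did so in several, among them the run without the filter. Where no gene passes, a count of 0 members says nothing particular to the Hox genes. The mock and B-DNA arrays were paired by genotype in the fit, and without that block B-DNA against mock also called 0 members. The labels give no replicate numbers for any other pairing. With 1 array per group the spread comes from the mock and B-DNA arrays of a genotype, and members under the floor have no measured order.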

Other observations

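Probe sets shared by several Hox symbols were kept out of the comparisons. The probe set annotated to Hoxb8 and Hoxb7 read 78.3 and 169 in double-mutant cells (mock, then B-DNA), 91.0 and 58.4 in WT, 112 and 85.3 in Tbk1-/- and 38.5 and 74.7 in Ikbke-/- cells, so that only the double-mutant B-DNA array was above the floor. The probe sets annotated to Hoxd4 and Hoxd3 stayed under the floor on all 8 arrays. A second Hoxc6 probe set read 291 and 184 in double-mutant cells, 235 and 359.7 in WT, 145 and 164 in Tbk1-/- and 147 and 141 in Ikbke-/- cells, with the groups overlapping between WT and double-mutant cells.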
